A study of Mus musculus with 28 samples.

Results

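Mitochondrial ribosomal protein genes were followed in mouse CD4+ T cells before and after stimulation through the T cell receptor. The members were all genes whose platform symbol was a single one starting with Mrpl or Mrps and a digit, which gave 73 of the 17097 genes tested, 46 with a large subunit name (Mrpl) and 27 with a small subunit name (Mrps). Each gene was read through its brightest probe set, and no member was left out for a low value. All 73 lay above background in all 9 groups, background being the 95th percentile of 23 non-specific control probe sets of an array.

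Total splenic CD4+ T cells came from female mice of 3 strains, all 12 weeks old. Sle1b.BACSlamf6-H1, written Sle1b.BAC from here on, is B6.Sle1b with an added bacterial artificial chromosome named for the H1 form of Slamf6, a receptor of the SLAM family. B6.Sle1b is a congenic strain that carries the lupus-linked Sle1b interval of chromosome 1, which Sle1b.BAC therefore carries as well, and C57BL/6 is the background strain without either. Cells of each strain were unstimulated or had been kept on plate-bound antibody to CD3 at 0.1 µg/ml for 4 h or 24 h. Each group held 3 biological arrays except C57BL/6 at 24 h, which held 2, so 26 arrays entered the comparisons. How many lines of the added chromosome were used, and whether animals were pooled, is not stated in the labels, which also leave unsaid whether samples of 1 group stem from different animals. P-values here thus reflect sample-to-sample spread that may in part be technical, and precision is limited by how many arrays there are.

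The mitochondrial ribosome, or mitoribosome, translates the few proteins that mitochondria encode themselves, all of them subunits of the respiratory chain and ATP synthase. Its ribosomal RNAs are made inside mitochondria, whereas all its proteins are encoded in the nucleus, made in the cytosol and imported, so that assembly depends on nuclear transcripts. Many of these proteins have a counterpart in bacterial ribosomes and the others were added in the lineage of mitochondria. In T cells, stimulation through the receptor is followed within a day by growth, an increase of mitochondrial mass and entry into the cell cycle.

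The 75th percentile of an array lay between 34.2 and 53.3 intensity units and the background between 2.76 and 3.21 log2 units. All 8 T cell markers measured lay above background in every group. Cd4, the marker that defines the cells, averaged 5.43 to 6.30 log2 units per group. Of the CD8 T cell markers, Cd8a averaged 2.94 to 3.11, close to the level of the control probe sets. Cd8b1, however, averaged 4.82 to 5.44 and lay above background in every group. Jchain, a plasma cell marker, averaged 8.46 to 12.29 and Hba-a1, an erythroid marker, 8.83 to 11.80.

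The 5 sequences below are shown because they stand in front of the members that the results turn on, or between members and neighbours read in the opposite direction. The first 3 are the 250 bases upstream of the annotated start of Mrpl12 (chr11:120484387-120484636, plus strand), which had the largest difference at 24 h, of Mrpl17 (chr7:105811088-105811337, minus strand), which was higher at both times, and of Mrpl39 (chr16:84735245-84735494, minus strand), which had the largest difference at 4 h. The fourth is the stretch between the starts of Mrpl46 and Mrps11 (chr7:78783090-78783130, printed on the plus strand, that of Mrps11), and the fifth that between Sars2 and Mrps12 (chr7:28741822-28741967, printed on the minus strand, that of Mrps12). All come from RefSeq, assembly GRCm38.p6, and run 5′ to 3′. Capitals mark the letters GGGCGG or CCGCCC (the SP/KLF motif), CCGGAAG or CTTCCGG (GABP/ETS) and GCGCATGCGC (NRF1), as a search of both strands found them. In Mrpl17 a GABP/ETS match and an SP/KLF match overlap and form 1 run of capitals.
Mrpl12: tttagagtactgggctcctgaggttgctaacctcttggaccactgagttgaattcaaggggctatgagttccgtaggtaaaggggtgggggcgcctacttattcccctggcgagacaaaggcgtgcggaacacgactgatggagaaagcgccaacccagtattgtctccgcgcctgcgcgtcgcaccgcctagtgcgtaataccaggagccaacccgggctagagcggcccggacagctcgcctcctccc
Mrpl17: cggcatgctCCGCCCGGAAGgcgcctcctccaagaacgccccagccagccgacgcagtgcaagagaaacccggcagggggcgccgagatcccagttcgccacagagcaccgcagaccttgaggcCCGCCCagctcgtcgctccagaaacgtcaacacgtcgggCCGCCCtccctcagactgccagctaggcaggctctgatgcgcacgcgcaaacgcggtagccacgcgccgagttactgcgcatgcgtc
Mrpl39: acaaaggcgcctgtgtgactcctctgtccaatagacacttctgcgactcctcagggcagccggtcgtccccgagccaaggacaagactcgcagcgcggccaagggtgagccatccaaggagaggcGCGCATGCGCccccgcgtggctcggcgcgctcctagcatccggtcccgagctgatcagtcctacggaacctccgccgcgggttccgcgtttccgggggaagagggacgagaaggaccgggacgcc
Mrpl46 to Mrps11: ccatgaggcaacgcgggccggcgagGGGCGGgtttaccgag
Sars2 to Mrps12: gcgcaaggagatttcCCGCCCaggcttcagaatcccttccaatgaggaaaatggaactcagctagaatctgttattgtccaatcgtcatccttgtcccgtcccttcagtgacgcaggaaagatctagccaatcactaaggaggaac

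After 24 h of stimulation nearly the whole family was higher than in unstimulated cells. Over the mean of the 3 strains, 71 of the 73 members were called higher by limma at an adjusted p under 0.05 and 0 lower, where 22.9% of all genes tested were called higher and 17.4% lower. Among genes above background in at least 1 group these shares were 29.9% and 23.3%. The median difference of the members was 1.002 on the log2 scale, with quartiles of 0.61 and 1.33 and a range of 0.05 to 2.03, and the median over all genes tested was 0.06. In 61 members every array at 24 h lay above every unstimulated array in each of the 3 strains, against 14.5% of all genes. In RNA from whole samples, more RNA per cell and a larger share of cells that carry it cannot be told apart.

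The median level of the members on each array shows the same without any fit. In unstimulated cells it averaged 7.25 ± 0.024 log2 units in Sle1b.BAC, 7.49 ± 0.15 in B6.Sle1b and 7.47 ± 0.15 in C57BL/6 (SD, n = 3 each). At 4 h it averaged 7.40 ± 0.024 in Sle1b.BAC, 7.50 ± 0.068 in B6.Sle1b and 7.63 ± 0.12 in C57BL/6 (SD, n = 3 each). At 24 h it averaged 8.39 ± 0.027 in Sle1b.BAC and 8.34 ± 0.038 in B6.Sle1b (SD, n = 3 each), and 8.43 ± 0.10 in C57BL/6 (SD, n = 2). The 24 h arrays, at 8.31 to 8.51, therefore stood clear of all others, whereas the 4 h arrays, at 7.38 to 7.77, overlapped the unstimulated ones at 7.22 to 7.63.

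Markers of cell types moved between the times too. Of 8 T cell markers, 1 was higher and 7 lower at 24 h, with a median of -0.46 and a summed log2 level of 72.4 to 74.5 at 24 h, against 76.2 to 78.4 in unstimulated cells. Of 4 plasma cell markers, 0 were higher and 3 lower, with a median of -0.98 and a summed level of 25.5 to 29.4 at 24 h, against 27.98 to 33.35 in unstimulated cells, and Tnfrsf17 was at background in 4 groups. Of 9 B cell markers 2 were higher and 3 lower, of 9 markers of monocytes and macrophages 1 and 2, and of 2 erythroid, 2 CD8 T cell, 4 dendritic cell and 4 NK cell markers 0 and 1 each, while none of 6 neutrophil markers was called. At 4 h against unstimulated cells, 1 T cell marker was higher and 2 lower with a median of -0.17, and 1 plasma cell marker was higher and 2 lower with a median of -0.43. In the same comparison 1 marker each of B cells, of monocytes and macrophages and of NK cells was lower. At 24 h against 4 h, 1 T cell marker was higher and 4 lower with a median of -0.23, and 2 plasma cell markers were lower with a median of -0.46. Their part in the members' differences was not tested.

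**Figure D1:**
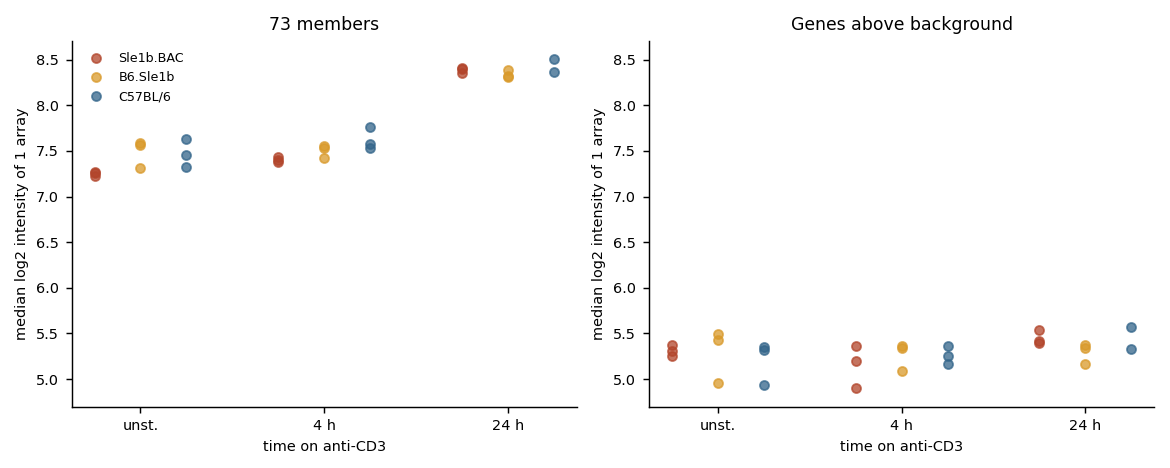
Left, the median log2 intensity of the 73 members on each biological array, by time after anti-CD3 and strain. Right, the median over genes above background in at least 1 group on the same arrays. Each point is 1 array; the members' medians at 24 h lie at 8.31 to 8.51, above those of all unstimulated and 4 h arrays.

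**Figure D2:**
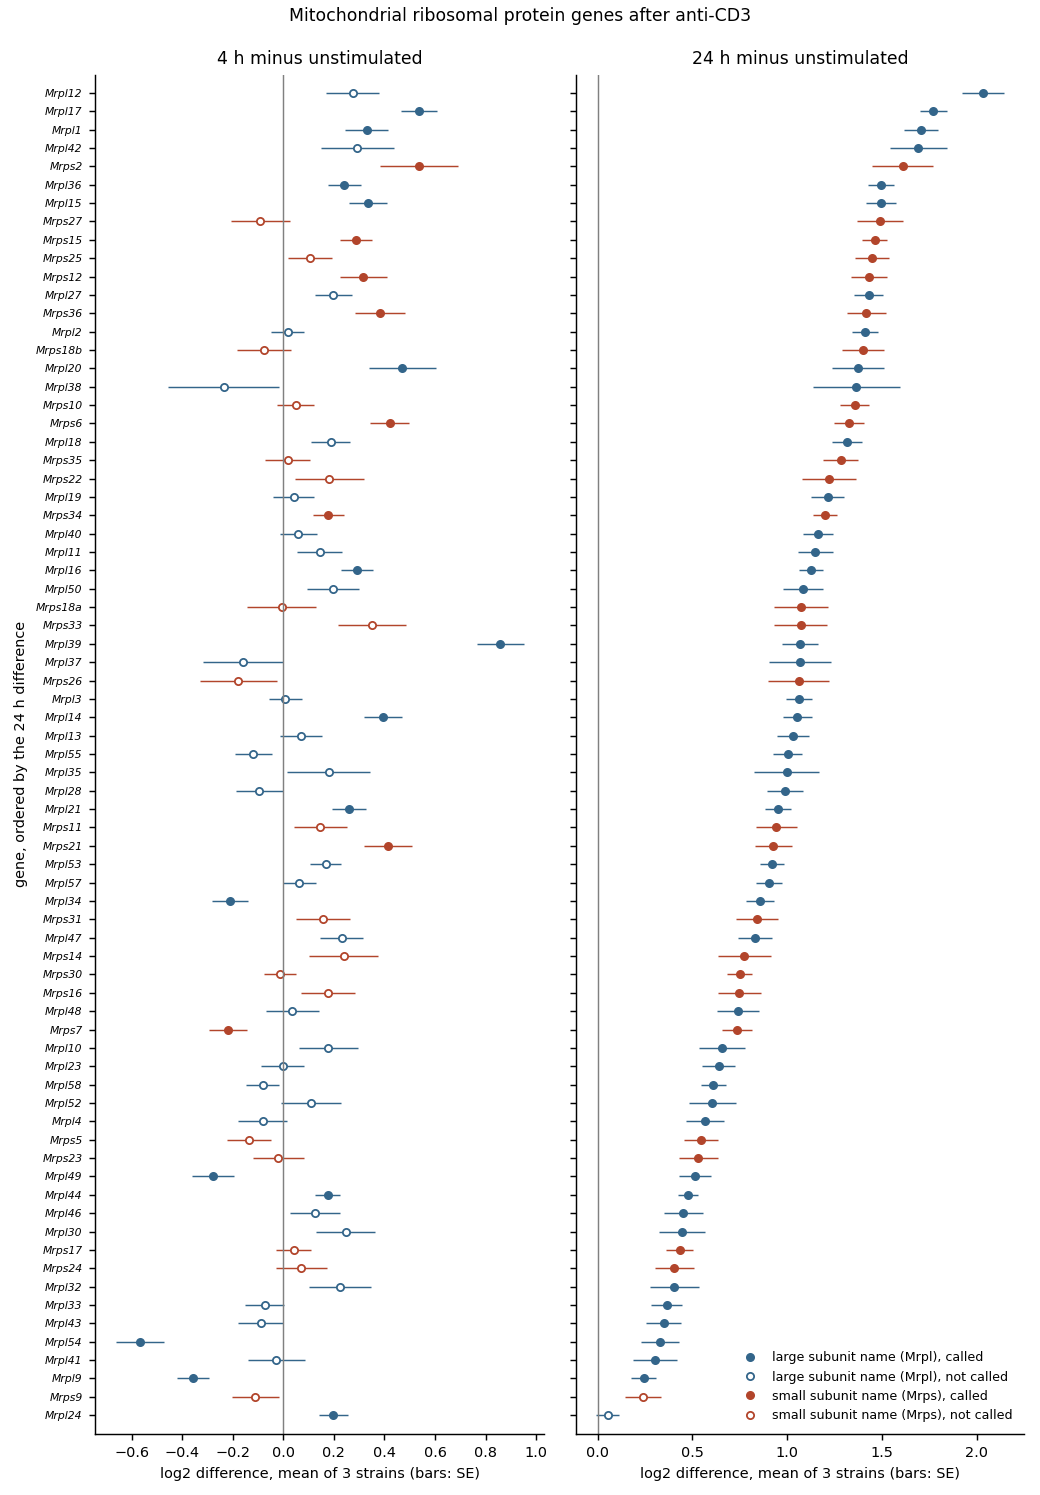
Log2 difference from unstimulated cells of each of the 73 members at 4 h and at 24 h (mean of the 3 strains), ordered by the 24 h difference, with bars of 1 standard error, blue for Mrpl and red for Mrps names. Filled points were called at an adjusted p under 0.05; at 24 h 71 are filled and all lie above 0, and at 4 h 18 are filled above 0 and 5 below.

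Mrpl12, which encodes the protein that forms the flexible stalk of the large subunit where translation factors dock, had the largest difference at 24 h. In unstimulated cells its 3 arrays read 7.27, 7.43 and 7.71 log2 units in Sle1b.BAC, 8.02, 7.42 and 8.13 in B6.Sle1b, and 7.59, 8.11 and 7.88 in C57BL/6. At 4 h they read 7.85, 8.17 and 7.86 in Sle1b.BAC, 7.997, 8.09 and 7.70 in B6.Sle1b, and 8.002, 8.47 and 7.87 in C57BL/6. At 24 h they read 9.85, 9.67 and 9.64 in Sle1b.BAC, 9.76, 9.71 and 9.76 in B6.Sle1b, and 9.85 and 9.80 in C57BL/6. All 8 arrays at 24 h were thus higher than all arrays of the other times, while the 4 h arrays overlapped the unstimulated ones in B6.Sle1b and C57BL/6 and lay above them in Sle1b.BAC. The difference between 24 h and unstimulated cells was 2.03 ± 0.11 on the log2 scale (SE), a 4.10-fold higher intensity (limma, adjusted p = 7.25e-13). By strain it was 2.25 in Sle1b.BAC, 1.89 in B6.Sle1b and 1.97 in C57BL/6.

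The proteins around this stalk differed in size of change. Mrpl10, which anchors the stalk protein to the ribosome, was higher at 24 h by 0.66 ± 0.12 (SE, 1.58-fold, limma adjusted p = 9.5e-05), and Mrpl11, at the base of the stalk, by 1.15 ± 0.09 (2.22-fold, adjusted p = 6.2e-10). Mrpl1, the protein of the stalk on the other side of the large subunit, past which spent tRNA leaves in bacterial ribosomes, was among the 3 largest differences at 1.70 ± 0.09 (3.26-fold, limma adjusted p = 5.32e-13). Its group means over the 3 strains were 5.91 log2 units in unstimulated cells, 6.24 at 4 h and 7.62 at 24 h.

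Mrpl17, a large subunit protein with a bacterial counterpart, was higher at both times. Its unstimulated arrays read 6.76, 6.89 and 6.94 log2 units in Sle1b.BAC, 7.24, 6.87 and 6.97 in B6.Sle1b, and 7.01, 6.90 and 7.07 in C57BL/6. At 4 h they read 7.40, 7.35 and 7.38 in Sle1b.BAC, 7.57, 7.77 and 7.33 in B6.Sle1b, and 7.63, 7.73 and 7.34 in C57BL/6. At 24 h they read 8.72, 8.63 and 8.71 in Sle1b.BAC, 8.80, 8.74 and 8.60 in B6.Sle1b, and 8.85 and 8.76 in C57BL/6. The 3 times did not overlap in any strain, nor when the strains were put together. Mrpl17 was higher by 0.54 ± 0.07 at 4 h (SE, limma adjusted p = 4.56e-06) and by 1.77 ± 0.07 at 24 h (3.41-fold, adjusted p = 8.44e-15).

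The other members among the 10 largest differences at 24 h whose arrays did not overlap in any strain came from both subunits. In the large subunit these were Mrpl42 at 1.69 ± 0.15 (SE, 3.23-fold), a protein without a bacterial counterpart, Mrpl36 at 1.496 ± 0.068 (2.82-fold) and Mrpl15 at 1.49 ± 0.08 (2.82-fold). In the small subunit they were Mrps2 at 1.61 ± 0.16 (3.05-fold), Mrps27 at 1.49 ± 0.12 (2.81-fold), a pentatricopeptide repeat protein that binds RNA, Mrps15 at 1.46 ± 0.07 (2.76-fold) and Mrps25 at 1.45 ± 0.09 (2.73-fold). Their limma adjusted p-values ran from 3.65e-14 for Mrps15 to 1.93e-08 for Mrps2. Mrps12, whose bacterial counterpart sits at the decoding centre that checks each codon, was higher by 1.43 ± 0.09 (2.70-fold, adjusted p = 2.31e-11).

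At the other end, 2 members were not called at 24 h. Mrpl24, a large subunit protein with a bacterial counterpart, read 9.63, 9.55 and 9.63 log2 units in unstimulated Sle1b.BAC cells, 9.67, 9.65 and 9.80 in B6.Sle1b and 9.64, 9.98 and 9.59 in C57BL/6. Its 4 h arrays read 9.81, 9.85 and 9.78 in Sle1b.BAC, 9.84, 9.81 and 9.81 in B6.Sle1b and 9.90, 10.03 and 10.09 in C57BL/6. Its 24 h arrays read 9.65, 9.74 and 9.60 in Sle1b.BAC, 9.73, 9.87 and 9.63 in B6.Sle1b and 9.86 and 9.73 in C57BL/6. The 24 h arrays overlapped the unstimulated ones in every strain, and Mrpl24 was the only one of the 73 whose mean was highest at 4 h. Its difference was 0.20 ± 0.06 at 4 h (SE, limma adjusted p = 0.0199) and 0.05 ± 0.06 at 24 h (adjusted p = 0.552). The 4 h call was lost without the third unstimulated C57BL/6 array (adjusted p = 0.0526).

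Mrps9, the other member not called at 24 h, averaged 7.06 log2 units in unstimulated cells, 6.95 at 4 h and 7.30 at 24 h. Its difference at 24 h was 0.24 ± 0.10 (SE, limma adjusted p = 0.0545). Mrpl41 passed narrowly at 0.30 ± 0.12 (adjusted p = 0.0418), a call that was lost in 12 of the 26 fits that left out 1 array each. Probe sets with a high intensity showed both kinds of change: the 4 brightest were those of Mrpl30 (mean 10.19 log2 units), Mrpl24 (9.76), Mrps14 (9.60) and Mrpl52 (9.56), with 24 h differences of 0.45, 0.05, 0.77 and 0.60. The 4 dimmest were those of Mrpl47 (3.56), Mrps27 (4.28), Mrpl38 (5.72) and Mrpl37 (5.82), with 24 h differences of 0.83, 1.49, 1.36 and 1.07. A probe set's brightness depends on its probes as well as on its transcript, so these levels do not rank the genes.

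**Figure D3:**
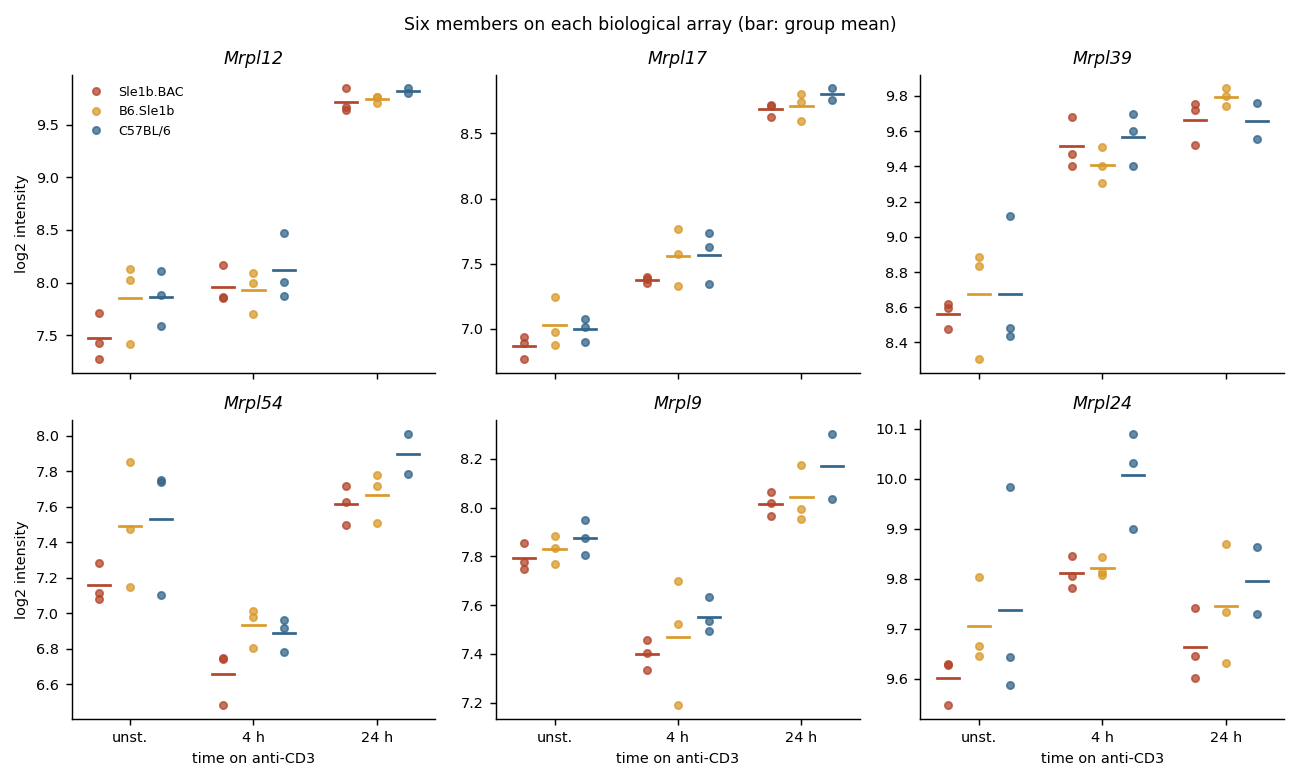
Log2 intensity of Mrpl12, Mrpl17, Mrpl39, Mrpl54, Mrpl9 and Mrpl24 on every biological array, by time after anti-CD3 and strain, with a bar at each group mean. Mrpl12 and Mrpl17 are highest at 24 h, Mrpl39 is already near its 24 h level at 4 h, Mrpl54 and Mrpl9 are lowest at 4 h, and Mrpl24 lies between 9.55 and 10.09 throughout.

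At 4 h most members were not called. Over the mean of the 3 strains, 18 members were called higher and 5 lower, with 50 not called, where 8.15% of all genes were called higher and 10.1% lower. The 5 lower were 6.85% of the members, a share below that of all genes, while the 18 higher were 24.7%. Without the 3 arrays with the lowest 75th percentile, 29 members were higher, and the share of all genes called in that fit is not given here. The median difference of the members was 0.12 on the log2 scale, against 0.02 over all genes, with 50 members above 0 and 23 below. The arrays of the 2 times did not overlap in any strain for 3 members that were higher (Mrpl39, Mrpl17 and Mrpl14) and 2 that were lower (Mrpl54 and Mrpl9), where 2.99% and 2.95% of all genes met this. Both comparisons with unstimulated cells use the same unstimulated arrays, so the 4 h and 24 h values of a member are set side by side without a test between them.

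Mrpl39, a protein of the large subunit that resembles a threonyl-tRNA synthetase, had the largest difference at 4 h. In unstimulated cells its arrays read 8.48, 8.62 and 8.60 log2 units in Sle1b.BAC, 8.84, 8.30 and 8.88 in B6.Sle1b, and 8.48, 9.12 and 8.44 in C57BL/6. At 4 h they read 9.40, 9.68 and 9.47 in Sle1b.BAC, 9.40, 9.30 and 9.51 in B6.Sle1b, and 9.40, 9.60 and 9.70 in C57BL/6. At 24 h they read 9.75, 9.72 and 9.52 in Sle1b.BAC, 9.84, 9.80 and 9.74 in B6.Sle1b, and 9.76 and 9.55 in C57BL/6. The lowest 4 h array lay above the highest unstimulated one, while the 4 h and 24 h arrays overlapped in Sle1b.BAC and C57BL/6. Mrpl39 was higher by 0.86 ± 0.09 at 4 h (SE, 1.81-fold, limma adjusted p = 3.74e-07) and by 1.07 ± 0.10 at 24 h (2.10-fold, adjusted p = 4.08e-09), and the difference between 24 h and 4 h, 0.21 ± 0.10, was not called (adjusted p = 0.109). Mrpl14, a large subunit protein with a bacterial counterpart, lay at 5.55 to 6.05 log2 units in unstimulated cells, 6.02 to 6.49 at 4 h and 6.63 to 7.29 at 24 h. It was higher by 0.40 ± 0.08 at 4 h (limma adjusted p = 4.42e-04) and by 1.05 ± 0.08 at 24 h (2.08-fold, adjusted p = 1.48e-10).

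Of the 18 members higher at 4 h, 17 were also higher at 24 h, the exception being Mrpl24. Among them were Mrps2 at 0.54 ± 0.15 (SE, limma adjusted p = 0.0165), Mrpl20 at 0.47 ± 0.13 (adjusted p = 0.0142) and Mrps6 at 0.42 ± 0.08 (adjusted p = 2.9e-04). Mrpl12, with the largest value at 24 h, did not pass at 4 h (0.27 ± 0.11, limma adjusted p = 0.0794). The smallest called difference at 4 h was Mrpl44, which contains a ribonuclease-like fold, at 0.18 ± 0.05 (limma adjusted p = 0.0133), beside Mrps34 at 0.18 ± 0.06 (adjusted p = 0.0495), whose call was lost in 21 of the 26 fits without 1 array. A further 49 members were called at 24 h and not at 4 h.

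The 5 members called lower at 4 h, a smaller share of the family than the 10.1% of all genes, were all higher at 24 h, each against unstimulated cells. Their number was 2 or 3 with a further quantile normalization, with arrays centred on their median, with the mean of probe sets or with only the groups compared in the fit. Mrpl54, a mitochondria-specific protein of the large subunit, read 7.28, 7.08 and 7.11 log2 units in unstimulated Sle1b.BAC cells, 7.48, 7.15 and 7.85 in B6.Sle1b and 7.10, 7.75 and 7.74 in C57BL/6. At 4 h it read 6.74, 6.75 and 6.48 in Sle1b.BAC, 6.81, 7.01 and 6.98 in B6.Sle1b and 6.78, 6.96 and 6.92 in C57BL/6. At 24 h it read 7.71, 7.62 and 7.50 in Sle1b.BAC, 7.71, 7.51 and 7.78 in B6.Sle1b and 8.01 and 7.78 in C57BL/6. All 9 arrays at 4 h lay below all unstimulated and all 24 h arrays, whereas the unstimulated and 24 h arrays overlapped in B6.Sle1b. The difference was -0.57 ± 0.10 at 4 h (SE, a 1.48-fold lower intensity, limma adjusted p = 1.23e-04), 0.33 ± 0.10 at 24 h (adjusted p = 0.00972) and 0.90 ± 0.10 between 24 h and 4 h (adjusted p = 1.26e-07). Averaged over its probe sets in place of the brightest, Mrpl54 was not called at 24 h (limma adjusted p = 0.321).

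Mrpl9, which has a bacterial counterpart in the large subunit, lay at 7.75 to 7.95 log2 units in unstimulated cells, 7.19 to 7.70 at 4 h and 7.95 to 8.30 at 24 h. Its 4 h arrays were below its unstimulated arrays in every strain, with a difference of -0.36 ± 0.06 over the mean of the strains (SE, limma adjusted p = 2.36e-04), and its 24 h difference was 0.24 ± 0.07 (adjusted p = 0.00491). The mean over its probe sets gave no call at 24 h (adjusted p = 0.0953). Mrpl49 averaged 7.08 log2 units in unstimulated cells, 6.80 at 4 h and 7.60 at 24 h, with a 4 h difference of -0.28 ± 0.08 (SE, limma adjusted p = 0.0196) and a 24 h difference of 0.51 ± 0.09. Mrps7, whose bacterial counterpart binds early to the small subunit RNA, differed by -0.22 ± 0.07 at 4 h (SE, limma adjusted p = 0.0464) and 0.73 ± 0.08 at 24 h. Mrpl34 differed by -0.21 ± 0.07 at 4 h (SE, limma adjusted p = 0.0428) and 0.86 ± 0.07 at 24 h. The 4 h calls of Mrps7 and Mrpl34 were lost in 17 and 15 of the 26 fits that left out 1 array. The count of lower members was 3 in place of 5 without any 1 of 14 arrays, namely the 3 unstimulated arrays of Sle1b.BAC, replicates 2 and 3 at 4 h and replicate 1 at 24 h, unstimulated replicate 1 of B6.Sle1b, replicate 3 at 4 h and all 3 at 24 h, and unstimulated replicates 1 and 3 of C57BL/6 and replicate 3 at 4 h.

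Between 4 h and 24 h, 69 members were higher at the later time and 0 lower, with a median difference of 0.89, where 20.5% of all genes were called higher. The 4 not called were Mrpl39 (above), Mrpl24 at -0.14 ± 0.06 (SE, limma adjusted p = 0.0746), Mrpl32, which is known to be cut by a protease of the inner membrane before it enters the ribosome, at 0.18 (adjusted p = 0.349), and Mrpl30 at 0.20 (adjusted p = 0.249). The count of lower members was 1 without the second unstimulated C57BL/6 array or without the second B6.Sle1b array at 24 h. Over the 3 times, 72 members had their highest mean at 24 h. The lowest mean was that of unstimulated cells in 50 members and that of 4 h in 23.

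Large and small subunit names gave similar counts at 24 h, 45 of 46 members higher with a median of 0.99 for Mrpl and 26 of 27 with a median of 1.07 for Mrps. Among the 42 members whose number corresponds to a bacterial ribosomal protein (up to 36 in the large and 21 in the small subunit), 40 were higher at 24 h with a median of 1.04. Among the 31 with a higher number, taken here as mitochondria-specific by number alone, 31 were higher with a median of 0.92. The number does not settle the class of each protein, and the 31 include Mrps36, treated below. At 4 h, 14 of the 42 were higher and 3 lower, and of the 31, 4 were higher and 2 lower, beside the 8.15% of all genes called higher and 10.1% called lower. Both classes thus held a smaller share of lower calls than all genes did. These counts describe the classes, and no difference between classes was tested.

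Mrps18a and Mrps18b descend from 1 bacterial protein, and in structures of the ribosome the product of Mrps18a lies in the large subunit. Mrps18a lay at 6.48 to 7.18 log2 units in unstimulated cells, 6.31 to 7.40 at 4 h and 7.87 to 8.28 at 24 h. Mrps18b lay at 6.48 to 7.12 in unstimulated cells, 6.49 to 7.18 at 4 h and 7.97 to 8.48 at 24 h. Their unstimulated and 4 h ranges overlapped and the 24 h arrays stood clear of both. Mrps18a was higher at 24 h by 1.07 ± 0.14 (SE, 2.10-fold, limma adjusted p = 1.25e-06) and Mrps18b by 1.40 ± 0.11 (2.64-fold, adjusted p = 4.58e-10), and Mrps18c was not analysed here. Mrps30, another protein that lies in the large subunit despite its name, was higher by 0.75 ± 0.07 (limma adjusted p = 2.57e-09).

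Names and probe sets set some limits. Mrps36 was higher at 24 h by 1.42 ± 0.10 (SE, 2.67-fold, limma adjusted p = 1.09e-10), but its product is now known as a component of the oxoglutarate dehydrogenase complex and not of the ribosome. RefSeq lists pseudogenes of Mrps36, Mrpl27, Mrpl48 and Mrpl23, so their probes could read copies. Of the 73 members 38 had several probe sets, and in 1, Mrpl58, these were called in opposite directions at 24 h. The brightest probe set of Mrpl58, which encodes a peptidyl-tRNA hydrolase built into the large subunit, was higher by 0.61 ± 0.07 (SE, 1.53-fold, limma adjusted p = 1.04e-07), while the other, below background in all 9 groups, differed by -0.22 ± 0.07.

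Within each strain the 24 h result had the same direction in all 73 members. In Sle1b.BAC 66 members were called higher at 24 h (background 17.2% of all genes) with a median of 1.07, in B6.Sle1b 58 (14.8%) with a median of 0.91, and in C57BL/6 59 (15.7%) with a median of 0.98. No member was called lower at 24 h in any strain by limma, and the differences between 24 h and unstimulated cells were above 0 in every case. The 24 h arrays lay above all unstimulated arrays of their strain in 72 members in Sle1b.BAC (27.4% of all genes), 63 in B6.Sle1b (21%) and 66 in C57BL/6 (24.9%).

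At 4 h the strains taken singly gave few calls. In Sle1b.BAC 12 members were higher and 1 lower (background 4.22% and 6.35%), in B6.Sle1b 2 and 0 (2.57% and 3.12%), and in C57BL/6 4 and 1 (4.08% and 2.97%). Their median differences were 0.16, -0.00 and 0.16. The count of higher members in Sle1b.BAC fell to 5, 6 and 7 without its unstimulated replicates 1, 2 and 3 and to 7 without replicate 2 at 4 h. In B6.Sle1b it was 0 without unstimulated replicate 2, 1 without replicate 2 at 4 h and 4 without replicate 3 at 4 h. In C57BL/6 it was 7 without unstimulated replicate 2, and 2 without replicate 1 or replicate 2 at 4 h.

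No member was called between strains. In none of the 9 comparisons of strains at a single time, the 3 over the mean of the times and the 6 differences between responses did limma call a member at an adjusted p under 0.05. Between 0% and 0.333% of all genes were called in these. Other settings did call members, which for Sle1b.BAC against B6.Sle1b in unstimulated cells numbered 50 with array weights. For unstimulated B6.Sle1b against C57BL/6 there were 14 with array weights. For Sle1b.BAC against C57BL/6 at 4 h there were 7 with array brightness, taken as the 75th percentile, as a covariate. The shares of all genes called under these settings are not given here. Unstimulated B6.Sle1b replicates 1, 2 and 3 had weights of 8.71, 0.52 and 0.20, and those of C57BL/6 1.29, 0.17 and 3.29. The weighted comparisons with unstimulated B6.Sle1b thus rested mostly on its replicate 1, and the estimation of the weights stopped before its convergence tolerance. The members lay mostly to 1 side of 0. They also moved together between replicates of a group. The number of the 73 below their group mean ran from 4 on unstimulated B6.Sle1b replicate 1 to 69 on C57BL/6 replicate 2 at 24 h. Counts of members to 1 side of 0, or under a p threshold, are therefore not independent readings of a strain. Over the mean of the 3 times, Sle1b.BAC was below C57BL/6 in 72 of 73 members, as in 59.6% of all genes, with a median of -0.20 on the log2 scale and a range of -0.33 to 0.14, where the median over all genes was -0.02 and 0.228% of all genes were called. The medians over the mean of times were -0.10 between Sle1b.BAC and B6.Sle1b (0.0819% of all genes called) and -0.08 between B6.Sle1b and C57BL/6 (0.333%). At an unadjusted p under 0.05 there were 33 of 73 members between Sle1b.BAC and C57BL/6 and 1172 of all 17097 genes (6.85%).

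The size of this shift varied with time and strain pair. Between Sle1b.BAC and C57BL/6 the median difference of the members was -0.21 in unstimulated cells, -0.23 at 4 h and -0.12 at 24 h, with 60, 66 and 64 of the 73 below 0, where 53.8%, 61.6% and 53.8% of all genes lay below 0. Between Sle1b.BAC and B6.Sle1b it was -0.24, -0.07 and -0.02 at these times, with 59, 48 and 41 below 0, where 59.2%, 55.2% and 48.2% of all genes did. Between B6.Sle1b and C57BL/6 it was -0.00, -0.16 and -0.11, with 39, 66 and 66 below 0, where 43.6%, 56.5% and 54.9% of all genes did. The shares of all genes called at an adjusted p under 0.05 at these times were 0.0585%, 0.0643% and 0.0351% between Sle1b.BAC and C57BL/6, 0.0819%, 0% and 0% between Sle1b.BAC and B6.Sle1b, and 0.123%, 0.0409% and 0.0409% between B6.Sle1b and C57BL/6. Members at an unadjusted p under 0.05 between Sle1b.BAC and C57BL/6 numbered 21 in unstimulated cells, 19 at 4 h and 1 at 24 h, where 5.66%, 5.77% and 2.29% of all genes met this. Between Sle1b.BAC and B6.Sle1b they numbered 25, 6 and 1 at these times, where 8.13%, 3.59% and 5.31% of all genes did, and between B6.Sle1b and C57BL/6 they numbered 2, 5 and 1, where 4.14%, 3.61% and 4.71% did. At 24 h all 3 pairs thus held a smaller share of the members than of all genes at that threshold, as did unstimulated B6.Sle1b cells against C57BL/6. These comparisons share arrays, since each strain enters 2 pairs. In unstimulated cells the members' medians on the 3 Sle1b.BAC arrays, 7.27, 7.26 and 7.22 log2 units, lay below those of the B6.Sle1b arrays at 7.59, 7.32 and 7.57 and of the C57BL/6 arrays at 7.33, 7.63 and 7.45. The arrays at 7.57 and 7.63 were among the 3 with the lowest 75th percentile, at 35.6 and 34.8 intensity units. The unstimulated Sle1b.BAC arrays lay at 43.3 to 51.3. Fits with the 75th percentile as a covariate called some members between strains, as given with the alternatives. How much of the shift goes with that percentile was not tested.

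Markers of other cell types differed between the strains as well, over the mean of the times. The median difference of 6 neutrophil markers was 0.89 between Sle1b.BAC and C57BL/6 (1 called higher), -0.00 between Sle1b.BAC and B6.Sle1b and 0.91 between B6.Sle1b and C57BL/6 (0 called in either). Their summed log2 level ranged over 22.0 to 34.4 in Sle1b.BAC, 20.9 to 36.8 in B6.Sle1b and 17.3 to 25.1 in C57BL/6, and Lcn2 was at background in 8 of the 9 groups. For 9 B cell markers the median difference was -0.35 between Sle1b.BAC and C57BL/6 (1 called lower), -0.07 between Sle1b.BAC and B6.Sle1b (0 called) and -0.24 between B6.Sle1b and C57BL/6 (3 called lower), and Pax5 and Cr2 were at background in all groups. For 2 erythroid markers it was -0.59 between Sle1b.BAC and C57BL/6, -0.94 between Sle1b.BAC and B6.Sle1b and 0.36 between B6.Sle1b and C57BL/6, with 0 called. Their summed level ranged over 9.97 to 14.30 in Sle1b.BAC, 13.36 to 14.99 in B6.Sle1b and 11.65 to 15.04 in C57BL/6, and Alas2 was at background in 7 groups. The 8 T cell markers had medians of -0.06, -0.10 and 0.05 in these pairs, with 0 called. For 9 markers of monocytes and macrophages the medians were -0.00, 0.03 and 0.05. Of these 1 was called higher and 1 lower in each pair with C57BL/6, and 0 between Sle1b.BAC and B6.Sle1b. For 4 plasma cell markers they were 0.22, 0.04 and 0.26, with 0 called. The part of these cells in the members' shift was not tested.

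The members with the smallest p between strains did not pass the adjustment. Mrpl1 differed by -0.64 ± 0.15 between unstimulated Sle1b.BAC and B6.Sle1b cells (SE, limma adjusted p = 0.176), Mrps25 by -0.63 ± 0.15 between Sle1b.BAC and C57BL/6 at 4 h (adjusted p = 0.149) and Mrps6 by -0.33 ± 0.08 between Sle1b.BAC and B6.Sle1b over the mean of the times (adjusted p = 0.144). The 24 h response of the members was larger in Sle1b.BAC than in B6.Sle1b by a median of 0.23 and than in C57BL/6 by 0.09, and smaller in B6.Sle1b than in C57BL/6, by a median of -0.09. Between Sle1b.BAC and B6.Sle1b the members' median was -0.24 in unstimulated cells and -0.02 at 24 h. The 0.23 thus lay mostly in the unstimulated arrays. None of these differences in response was called for any member by limma, where 0.00585% of all genes were called between Sle1b.BAC and B6.Sle1b and 0% in the other pairs, and the numbers at an unadjusted p under 0.05 were 7, 0 and 1, where 5.11%, 1.84% and 4.80% of all genes met this.

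**Figure D4:**
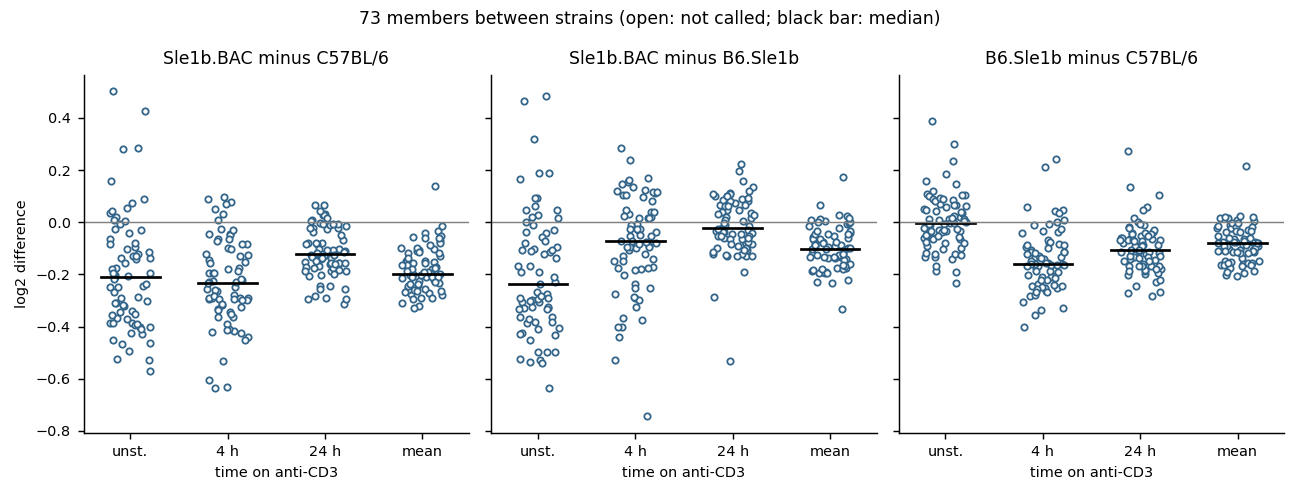
Log2 differences between strains of the 73 members in unstimulated cells, at 4 h, at 24 h and over the mean of the times, for Sle1b.BAC minus C57BL/6, Sle1b.BAC minus B6.Sle1b and B6.Sle1b minus C57BL/6. Each point is a member, and none was called; over the mean of the times 72 of 73 lie below 0 between Sle1b.BAC and C57BL/6.

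Other genes of mitochondrial protein synthesis were taken from lists by role. The counts in all lists stand beside 22.9% of all genes called higher and 17.4% lower at 24 h. At 4 h these shares were 8.15% and 10.1%. The 4 subunits of the mitoribosome whose symbols carry no Mrpl or Mrps were all higher at 24 h, with differences of 1.34 ± 0.07 for Gadd45gip1, 1.05 ± 0.15 for Chchd1, 0.64 ± 0.06 for Ptcd3 and 0.36 ± 0.05 for Dap3 (SE). Their limma adjusted p-values at 24 h ran from 6.78e-13 for Gadd45gip1 to 2.64e-06 for Chchd1. At 4 h Dap3, a GTP-binding protein of the small subunit, differed by -0.15 ± 0.05 (adjusted p = 0.028), and the other 3 were not called.

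Of 13 factors of translation and membrane insertion, 7 were higher at 24 h and 0 lower, with a median of 0.61. Tsfm, the elongation factor that recharges Tufm, differed by 1.89 ± 0.11 (SE, 3.71-fold, limma adjusted p = 4.14e-12), Gfm1, which moves the ribosome along the message, by 1.54 ± 0.15, Mtif2, the initiation factor, by 1.14 ± 0.12 and Tufm, which delivers tRNA, by 0.90 ± 0.10. At 4 h 1 of the 13, Mtif2, was higher, by 0.53 ± 0.12 (limma adjusted p = 0.0023). Oxa1l, which inserts new proteins into the inner membrane, was not called at 24 h (0.07 ± 0.12, limma adjusted p = 0.704).

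Of 20 genes of mitoribosome assembly and RNA modification, 14 were higher and 3 lower at 24 h, with a median of 0.60. C1qbp, a chaperone-like protein of the matrix, differed by 1.88 ± 0.11 (SE, limma adjusted p = 2.28e-12), the assembly GTPase Mtg1 by 1.40 ± 0.09, the methyltransferase of the small subunit RNA Mettl15 by 1.59 ± 0.12 and the RNA-binding protein Fastkd2 by 1.56 ± 0.12. The 3 lower, named after their values were seen, were all RNA methyltransferases, Nsun4 at -1.43 ± 0.18, Mrm1 at -0.66 ± 0.13 and Trmt61b at -0.66 ± 0.09 (SE, limma adjusted p of 5.64e-07, 1.35e-04 and 3.43e-06).

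Of 10 genes of mitochondrial transcription and genome maintenance, 5 were higher and 3 lower at 24 h, with a median of 0.24. Tefm, the elongation factor of mitochondrial transcription, differed by 1.81 ± 0.11 (SE, limma adjusted p = 3.37e-12), the single-stranded DNA binding protein Ssbp1 by 1.01 ± 0.09 and Pnpt1, an enzyme of RNA turnover, by 0.88 ± 0.10. The lower ones were both subunits of the mitochondrial DNA polymerase, Polg2 at -1.999 ± 0.13 (limma adjusted p = 9.24e-12) and Polg at -1.19 ± 0.17 (adjusted p = 3.85e-06), and the transcription factor Tfb2m at -0.57 ± 0.10. Of 15 mitochondrial aminoacyl-tRNA synthetases, 8 were higher and 0 lower, with a median of 0.43, among them Rars2 at 1.66 ± 0.07, Lars2 at 1.08 ± 0.16, Pars2 at 0.56 ± 0.10 and Vars2 at 0.43 ± 0.07 (SE). Mars2, 1 of the 8, was at background in all 9 groups.

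Of 9 transcription factors and coactivators known for nuclear genes of mitochondria, 4 were higher and 4 lower at 24 h. Myc differed by 2.26 ± 0.14 at 4 h (SE) and by 2.84 ± 0.15 at 24 h (7.15-fold, limma adjusted p = 5.83e-13), and the coactivator Ppargc1b by -0.49 ± 0.07 at 4 h and 0.64 ± 0.08 at 24 h. Gabpb1, a subunit of GABP, differed by -2.06 ± 0.12 at 24 h (adjusted p = 1.93e-12) and Nrf1 by -1.10 ± 0.14 (adjusted p = 8.99e-07), while Gabpa, the subunit of GABP that binds DNA, was not called (-0.01 ± 0.09, limma adjusted p = 0.967).

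The genes of the cytosolic ribosome had no common direction. Of 67 genes with an Rpl or Rps symbol, 10 were higher and 10 lower at 24 h, with a median of 0.01. At 4 h 0 were higher and 1 lower. In both directions these were smaller shares than the 22.9% and 17.4% of all genes at 24 h and the 8.15% and 10.1% at 4 h. The 4 with the smallest adjusted p were Rps27l at 1.14 ± 0.13 (SE), Rpl14 at 0.72, Rps2 at 0.32 and Rps19 at -0.22, of which Rps27l is a paralog of Rps27. The median level of these 67 was 12.83 log2 units, with a maximum of 13.61 for any probe set on any array, so that most lay near the top of the scale, and whether this compressed their differences was not tested.

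**Figure D5:**
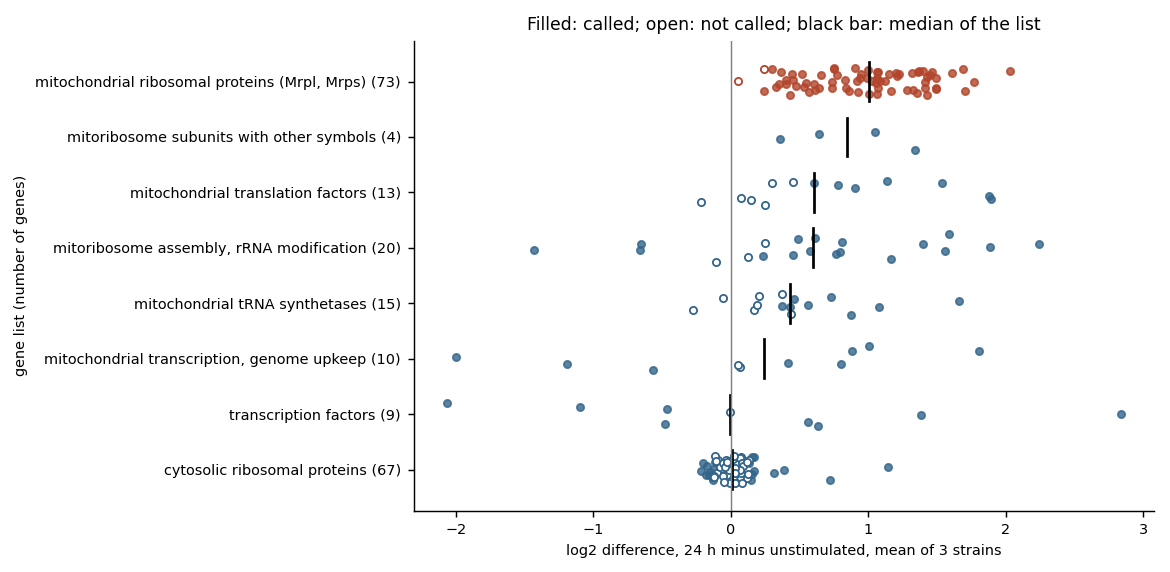
Log2 differences between 24 h and unstimulated cells (mean of the 3 strains) of the 73 members and of the genes in each list, 1 point per gene, with a black bar at the median. The members' median is 1.002, that of the 4 subunits with other symbols 0.84, and that of the 67 cytosolic ribosomal proteins 0.01.

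Promoters were compared by their letters. RefSeq promoter entries were found for 65 of the 73 members, and the 250 bases upstream of the start were searched on both strands. CCGGAAG, the GABP/ETS letters, stood in 14 of the 65 (21.5%), against 9.13% of 17492 protein-coding promoters, and GCGCATGCGC, the NRF1 letters, in 3 (4.62%), against 1.06%. AAGATGGC, the YY1 letters, stood in 4 (6.15%), against 1.51%, CACGTG, the E-box bound by Myc among others, in 4 (6.15%), against 6.64%, and GGGCGG, the SP/KLF letters, in 32 (49.2%), against 42.7%. The 3 members with the NRF1 letters were Mrpl39, Mrpl9 and Mrpl32, with 4 h differences of 0.86, -0.36 and 0.22. Mrpl12, printed above, held none of the 5 motifs in this window, and Mrpl17 held 4 matches.

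A neighbour read in the opposite direction from a start within 1000 bases was common. It was found for 22 of the 65 members (33.8%), against 1406 of 17492 protein-coding genes (8.04%). Members with such a neighbour had a median 24 h difference of 0.95 and the 43 without one 0.997. Mrpl46 and Mrps11, 42 bases apart and printed above, were both higher at 24 h, by 0.45 and 0.94, and thus members of both subunits shared 1 stretch of 41 bases between their starts. Of 20 neighbours that were no members 18 were tested, of which 8 were higher, 4 lower and 6 not called at 24 h, with a median of 0.30. Of all genes tested, 22.9% were called higher and 17.4% lower at 24 h.

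The neighbours did not all move as the members did. Eme1, which faces Mrpl27 at 48 bases and encodes a subunit of a DNA endonuclease, was higher by 1.54 where Mrpl27 was higher by 1.43, and Ptcd2, which faces Mrps27 at 108 bases, was higher by 1.07 where Mrps27 was higher by 1.49. Klc4, a kinesin light chain that faces Mrpl2 at 141 bases, differed by -1.59 where Mrpl2 was higher by 1.41. Sars2, the mitochondrial seryl-tRNA synthetase that faces Mrps12 at 147 bases, was not called at 0.37 ± 0.16 (SE, limma adjusted p = 0.0783), while Mrps12 was higher by 1.43. Zfp189, which faces Mrpl50 at 93 bases, differed by -0.40 where Mrpl50 was higher by 1.08. These neighbours were named after their values were seen.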

How the data were processed

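The platform was the Affymetrix HT MG-430 PM array, with 28 samples on 1 array each. For 45141 probe sets the authors deposited linear intensity values that RMA had produced, according to the submitters' processing notes. The RMA version is not given in the sources used here. This method corrects background, quantile normalizes and summarises probes, so each value is relative to its array. The deposited arrays still differed in their distributions, with medians of 9.06 to 10.50 and 75th percentiles of 34.2 to 53.3 intensity units. Brightness of an array means its 75th percentile here. The 3 arrays with the lowest 75th percentile had the highest medians, 10.38 to 10.50, and so were not dim throughout. Why the arrays differed was not tested. The intensity values the authors deposited were turned to log2 here, with no pseudocount and no filter on low values. The platform's annotation gave 28898 probe sets 1 symbol and 551 several; those with several name no gene here. Groups came from the labels' strain and time, and 2 arrays labelled technical entered only alternatives. No 2 arrays were identical.

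Differences were tested with limma 3.58.1 in R 4.3.3, in 1 fit of 9 group means with 30 contrasts, and adjusted (Benjamini-Hochberg) over all 17097 genes of a contrast. In data simulated for 17097 genes at 24 h against unstimulated cells, 68 of 100 genes changed by 0.5 on the log2 scale were recovered. Of those changed by 1, 99 of 100 were, with 14 false among 181 calls. Only these genes were changed, and the noise was independent between arrays. In the data 22.9% of all genes were called higher and 17.4% lower, so the simulated figures do not give the error rate of the fit.

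The members and lists were chosen with earlier results of these data known. The text names the 10 largest rises and falls among called members whose arrays did not overlap at 4 h and at 24 h, the 4 brightest and 4 dimmest probe sets, the 4 smallest 24 h differences, members with opposite calls at the 2 times, the paralogs named Mrps18, members with discordant probe sets, up to 4 genes per list by adjusted p, and further members for their role or promoter. Promoter sequences came from RefSeq (GRCm38.p6). Alternatives covered normalization, brightness, probe set choice, the gene filter, the technical arrays, array weights, blocks and leaving out each array.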

Additional observations from a re-analysis of the deposited data

How the results depend on the processing

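Of 38 alternatives, 26 left out 1 array each, and under none did a member called at 4 h, at 24 h or between them over the mean of the strains change its direction. The count of members higher at 24 h, 71, lay between 69 and 72 in all of them (70 to 72 without 1 array), and 67 of the 71 members were called under every setting. For 24 h against 4 h this held for 66 of 69, and for the 23 calls at 4 h for 13. With the mean of all probe sets of a gene the members' median difference was 0.82 at 24 h in place of 1.002, and 0.68 in place of 0.89 between 24 h and 4 h.

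The shares of all genes called under the alternatives are not given in this paragraph. The dimmest arrays are the 3 with the lowest 75th percentile, though their medians were not low. At 4 h over the mean of the strains, 29 members were higher without these 3 in place of 18 (17 to 26 without 1 array). The 5 lower became 3 after a further quantile normalization, 2 after centring on the median, 3 with the mean of probe sets and 2 with only the groups compared (3 to 6 without 1 array). Between 24 h and 4 h, 1 member in place of 0 was lower after quantile normalization, with all 28 arrays, with the technical arrays as 1, without the 3 dimmest arrays and with brightness as a covariate (0 to 1 without 1 array). In Sle1b.BAC at 4 h the 12 higher became 7 after centring and 6 with array weights (5 to 15 without 1 array), and the 1 lower became 2 after centring, among genes above background or with a replicate block, 3 with all 28 arrays, with the technical arrays as 1 or without the dimmest, 4 with brightness, 5 with a random block, and 0 with weights or only the groups compared (0 to 5). In B6.Sle1b the 2 higher became 6 after quantile normalization, with brightness or with weights and 0 with only the groups compared (0 to 4), and the 0 lower became 1 after centring, among genes above background, with the technical arrays as 1 or without the dimmest, 2 with all 28 arrays, brightness or a random block, and 12 with weights (0 to 1). In C57BL/6 the 4 higher became 7 after quantile normalization, 2 after centring, 11 without the dimmest, 14 with brightness, 33 with weights and 0 with only the groups compared (2 to 7), and the 1 lower became 0 after quantile normalization or with only the groups compared and 2 with brightness or weights (0 to 2).

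Strain comparisons without a call gained some with array weights, whose estimation stopped before its convergence tolerance: 14 in unstimulated B6.Sle1b cells against C57BL/6, 1 at 4 h and 21 in the 4 h response, and 50 between Sle1b.BAC and B6.Sle1b in unstimulated cells, 2 over the mean of times and 19 in the 24 h response. With brightness as a covariate, 1 was called between Sle1b.BAC and B6.Sle1b in unstimulated cells and 1 over the mean of times, and 7 between Sle1b.BAC and C57BL/6 at 4 h and 3 over the mean of times. Shares of all genes called under these settings are not given here, and the causes of these changes were not tested. Of 100 pairs of arrays with the same replicate number in different groups, 53 correlated above 0.1 in their deviations from group means. The range was -0.77 to 0.77, over pairs within and between strains. Within a strain the pairs ran from 0.19 to 0.72 in B6.Sle1b, from -0.28 to 0.70 in C57BL/6 and from -0.41 to 0.40 in Sle1b.BAC. The labels do not state a pairing, so pairing within a strain was neither assumed nor excluded. The replicate block left 71 members higher at 24 h. The correlation of the random block was 0.15.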
